A study of Mus musculus with 21 samples.

Results

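The genes described here are 10 of the 24062 genes in the count table of a mouse colon RNA-seq series: the CXCR2 ligands Cxcl1, Cxcl2, Cxcl3 and Cxcl5, their receptor Cxcr2, and the neutrophil-associated genes S100a8, S100a9, Csf3r, Trem1 and Lcn2. They were taken from the table by gene symbol, and all 10 were found and passed the filter on low counts. The list was chosen by results of the tumour and normal colon comparisons of these same libraries, so every tumour value of these genes below is a description and carries no test. Comparisons by genotype and by sex were not used to choose them and were tested. Yet they share libraries with the values used for the choice, in every group but knock-in female normal colon. The tests of differences between tumour effects are built from the tumour comparisons themselves.

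The series holds 21 libraries of total RNA from the colon of C57BL/6 mice, which form 7 groups of 3. Wild-type males gave a normal and a tumour group, wild-type females gave a normal and a tumour group, App NL-G-F knock-in males gave a normal and a tumour group, and App NL-G-F knock-in females gave a normal group; a tumour group of knock-in females was not analysed here. App NL-G-F (KI:RBRC06344) is a knock-in of familial Alzheimer's disease mutations into the mouse amyloid precursor protein gene, carried in all cells. Tumour libraries carry the treatment label AOM/DSS, a carcinogen (azoxymethane) followed by a colitis-inducing polymer (dextran sodium sulfate). The normal libraries are labelled as not treated, whereas the design text of the series speaks of normal tissue beside tumours or from colons in which none formed. Treatment and tissue can therefore not be told apart in the tumour comparisons. Ages are not given in the sources used here, and no label says that the 3 libraries of a group are separate animals, so p-values measure the spread between these libraries, which may be technical.

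Neutrophils are short-lived phagocytes that leave the blood along gradients of CXC chemokines. Cxcl1, Cxcl2, Cxcl3 and Cxcl5 are made by epithelium, stromal cells and myeloid cells under inflammatory signals, and act on CXCR2 on the neutrophil surface. S100A8 and S100A9 pair to form calprotectin, the abundant cytosolic protein of neutrophils whose faecal level is used to follow bowel inflammation. CSF3R is the receptor for granulocyte colony-stimulating factor, TREM1 amplifies inflammatory signals on myeloid cells, and LCN2 is an iron-siderophore-binding protein stored in neutrophil granules and also made by inflamed colon epithelium.

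The 4 ligand genes lie within 146.6 kb of chromosome 5 (GRCm38, also called mm10), all on the plus strand: Cxcl5 at chr5:90759298-90761625, Cxcl3 at chr5:90786101-90788093, Cxcl1 at chr5:90891245-90893121 and Cxcl2 at chr5:90903899-90905938. S100a8 (chr3:90669071-90670034, plus strand) and S100a9 (chr3:90692630-90695721, minus strand) span 26.65 kb of chromosome 3. Cxcr2 is at chr1:74153994-74161246, Csf3r at chr4:126023441-126044975 and Trem1 at chr17:48232713-48246927, all on the plus strand, and Lcn2 is at chr2:32384637-32387739 on the minus strand. These are whole-gene spans from RefSeq, while strands and the exon lengths used below are from the GENCODE M21 annotation. The 120 bases before the start site of 3 of the ligand genes are shown because these genes share a stretch of promoter sequence. Capitals mark matches on the plus strand to the consensus binding motif of NF-kappaB, the factor that switches on inflammatory genes.

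Cxcl1: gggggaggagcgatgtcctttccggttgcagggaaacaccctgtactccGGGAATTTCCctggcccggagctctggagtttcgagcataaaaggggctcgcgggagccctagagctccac
Cxcl2: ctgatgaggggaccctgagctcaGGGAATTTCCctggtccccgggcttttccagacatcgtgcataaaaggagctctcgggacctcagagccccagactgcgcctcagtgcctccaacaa
Cxcl3: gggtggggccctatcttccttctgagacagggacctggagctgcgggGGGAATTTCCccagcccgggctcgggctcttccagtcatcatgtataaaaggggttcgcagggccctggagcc

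These sequences are from RefSeq on GRCm38.p6, at chr5:90891125-90891244, chr5:90903779-90903898 and chr5:90785981-90786100, all on the plus strand; Cxcl5 had no entry in the table. The longest run that all 3 share in the 250 bases before their start sites is GGGAATTTCCC, 11 bases long, which begins 71 bases before the start of Cxcl1, 97 before that of Cxcl2 and 73 before that of Cxcl3. Searched on both strands, that run is present in 14 of 32851 promoters of the same length (0.0426%), and a match to the NF-kappaB consensus in 2382 of them (7.25%). The 14 include the 3 ligand genes, from whose shared sequence the run was chosen, so its rarity is no test. The run holds a consensus match on each strand, in windows shifted against each other, and the capitals mark only the match on the plus strand. Of the 9 genes with an entry, 4 hold a match: the 3 ligands and, on the minus strand only, Csf3r. A match is a description of the letters and says nothing of binding.

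Cxcl2 and Cxcl3 transcripts share an identical run of 157 bases, the longest between any pair of the 10 genes, and Cxcl1 shares 23 bases with each of them. How reads that fit more than 1 gene were counted is not given in the sources used here, so the split between Cxcl2 and Cxcl3 is uncertain. Library totals ran from 3414123 counts (wild-type male tumour 2) to 26174008 counts (wild-type female normal 1). Levels below are CPM, that is normalised counts per 1000000 counts assigned to genes, scaled to an effective library size by the trimmed mean of M values (TMM). Of 210 values (10 genes in 21 libraries), 12 were 0, all in normal colon: 5 in wild-type male normal 3, 4 in knock-in female normal a, 2 in knock-in female normal b and 1 in wild-type female normal 3. A count of 0 allows levels of up to 0.299, 0.337, 0.23 and 0.464 CPM in those libraries, taking 3 counts as the limit. In normal colon 42 of 120 values rested on fewer than 10 counts, against 1 of 90 in tumours, and such limits cover counting error only. No pair of libraries of a group was within counting noise of each other.

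**Figure D1:**
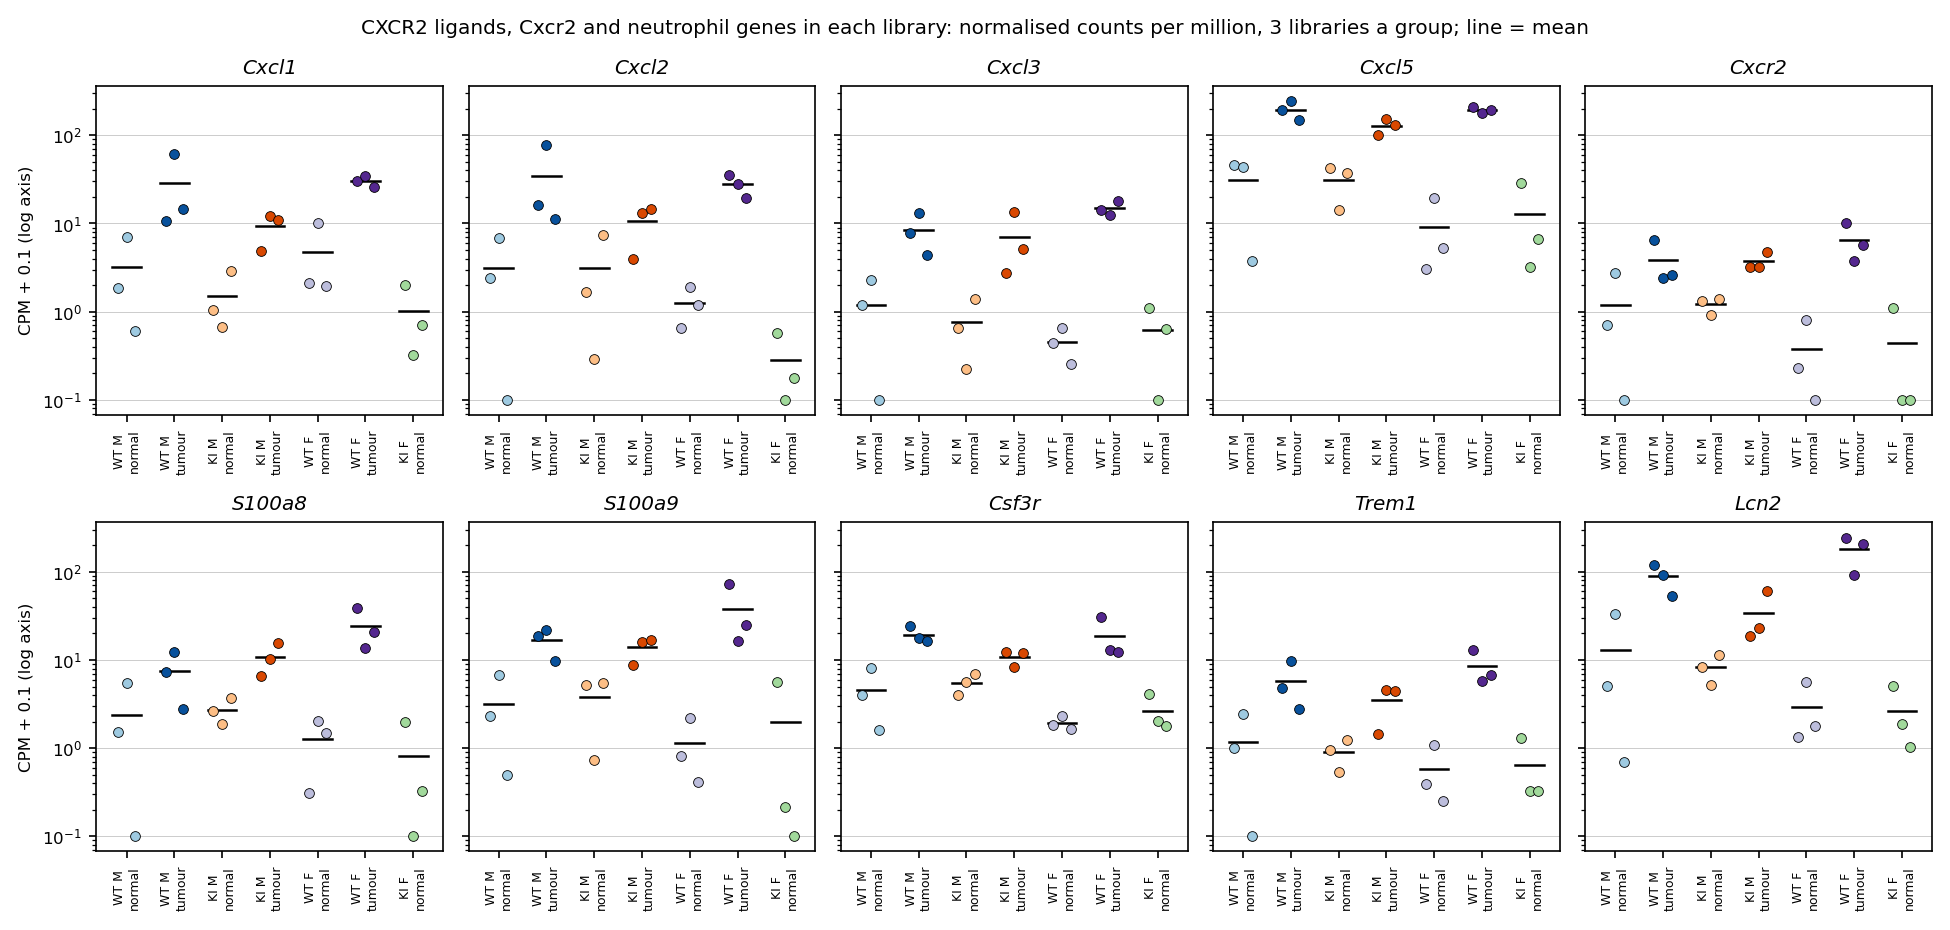
Normalised CPM plus 0.1 (log axis) of each of the 10 genes in each of 21 libraries, by group (WT wild-type, KI knock-in, M male, F female); points are libraries and lines are means of 3. Cxcl5 is above 100 CPM in all 9 tumour libraries and at or below 46.4 CPM in all 12 normal libraries, and wild-type male normal 3 is the lowest library of its group for all 10 genes.

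Cxcl5, an epithelial and stromal neutrophil attractant, was the most abundant of the 10 genes per kilobase of exon in all 7 groups. In tumours it measured 191, 245 and 150.3 CPM for wild-type males, 101.1, 151.9 and 129.4 CPM for knock-in males and 211.9, 176.5 and 193.7 CPM for wild-type females. In normal colon it measured 46.4, 43.5 and 3.68 CPM in wild-type males, 42.7, 14 and 36.8 CPM in knock-in males, 2.96, 19.2 and 5.11 CPM in wild-type females and 28.6, 3.15 and 6.58 CPM in knock-in females. The lowest tumour library thus lay above the highest normal library. Per kilobase of exon, Cxcl5 reached 105 ± 25.5 CPM in wild-type male tumours and 104 ± 9.49 CPM in wild-type female tumours (SD, n = 3), against 68.4 ± 13.7 CPM in knock-in male tumours. As log2 fold changes of tumour over normal colon, with the standard error (SE) of the fit, the differences were 2.63 (SE 0.84) for wild-type males, 2.04 (SE 0.82) for knock-in males and 4.50 (SE 0.94) for wild-type females.

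Cxcl2, a ligand made in quantity by activated myeloid cells, showed the widest spread relative to its mean of the 4 ligands in wild-type male tumours (coefficient of variation 105%). Its levels there were 16.2, 77.1 and 11.2 CPM, beside 2.31, 6.74 and 0 CPM in wild-type male normal colon. Knock-in males gave 3.88, 13.1 and 14.7 CPM in tumours and 1.59, 0.19 and 7.35 CPM in normal colon, and here alone among the tumour groups the libraries overlapped with normal colon for this gene. Wild-type females gave 35.6, 28.1 and 19.5 CPM in tumours and 0.55, 1.81 and 1.08 CPM in normal colon, without overlap. The 3 knock-in female normal libraries were the lowest group, at 0.48, 0 and 0.08 CPM. Tumour over normal, the log2 difference was 3.45 (SE 1.11) for wild-type males, 1.82 (SE 1.08) for knock-in males and 4.75 (SE 1.28) for wild-type females. Without wild-type male tumour 2, which is the shallowest library, the value in wild-type males was 2.16.

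Cxcl1, the mouse chemokine often called KC, correlated with Cxcl2 at 0.94 in log2 CPM over the 21 libraries. Tumours measured 10.5, 61.4 and 14.4 CPM for wild-type males, 4.76, 12.2 and 10.9 CPM for knock-in males and 30.6, 34.5 and 25.7 CPM for wild-type females. Normal colon ranged from 0.22 CPM (knock-in female a) to 9.90 CPM (wild-type female 2), so 2 normal libraries lay above the lowest tumour library. It was the ligand with the smallest tumour difference in wild-type females, at 2.78 (SE 0.91) on the log2 scale, against 3.16 (SE 0.92) in wild-type males and 2.73 (SE 0.97) in knock-in males.

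Cxcl3, the closest relative of Cxcl2 in the cluster, separated all 9 tumour libraries from all 12 normal libraries. Its tumour levels were 7.63, 13.1 and 4.33 CPM for wild-type males, 2.65, 13.2 and 5.09 CPM for knock-in males and 14.1, 12.5 and 17.8 CPM for wild-type females, and no normal library exceeded 2.17 CPM. The log2 differences were 2.83 (SE 0.85), 3.45 (SE 0.90) and 5.36 (SE 1.01) in that order. The per-kilobase level of Cxcl3 in wild-type female tumours, 4.24 ± 0.779 CPM (SD, n = 3), was below those of Cxcl5, Cxcl1 (16.1 ± 2.36) and Cxcl2 (13.4 ± 3.9).

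Cxcr2, the receptor that reads these 4 ligands, was detected at low counts, down to 0 in 4 normal libraries. It ranged from 2.33 CPM (wild-type male tumour 2) to 10.1 CPM (wild-type female tumour 1) over the 9 tumour libraries, and from 0 to 2.62 CPM over the 12 normal ones. Means were 3.72 ± 2.27 CPM in wild-type male tumours, 3.65 ± 0.904 CPM in knock-in male tumours and 6.41 ± 3.3 CPM in wild-type female tumours (SD, n = 3). The library with the most ligand RNA, wild-type male tumour 2, had the lowest Cxcr2 of all tumours, but from 8 counts in the shallowest library. Wild-type male tumour 3 was close to it, at 2.49 CPM from 27 counts, so their order is not resolved. The log2 differences from normal colon were 1.81 (SE 0.93), 1.71 (SE 0.92) and 4.70 (SE 1.16).

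S100a9, the larger calprotectin subunit, separated tumours from normal colon in all 21 libraries. It measured 18.7, 21.5 and 9.76 CPM in wild-type male tumours, 8.71, 16.1 and 16.7 CPM in knock-in male tumours and 72.7, 16.3 and 24.7 CPM in wild-type female tumours. The highest normal library, wild-type male normal 2, held 6.59 CPM, and the lowest held 0. A single library, wild-type female tumour 1, stood far above the other 2 of its group. Its partner S100a8 was highest there too, at 38.6 CPM, and ran from 2.67 to 38.6 CPM in tumours and from 0 to 5.39 CPM in normal colon, with overlap in wild-type males only. The log2 differences of S100a9 were 2.40 (SE 1.09) for wild-type males, 1.92 (SE 1.07) for knock-in males and 5.26 (SE 1.29) for wild-type females, and those of S100a8 were 1.60 (SE 0.98), 2.02 (SE 0.96) and 4.60 (SE 1.13).

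Csf3r, the receptor for the growth factor that drives neutrophil production, had the smallest standard errors of the 10 genes in the tumour comparisons. Tumours gave 24.1, 17.5 and 16.4 CPM for wild-type males, 12.2, 8.28 and 11.8 CPM for knock-in males and 30.8, 13 and 12.3 CPM for wild-type females. Normal colon gave 3.92, 7.94 and 1.49 CPM in wild-type males, 3.92, 5.51 and 6.74 CPM in knock-in males, 1.73, 2.23 and 1.55 CPM in wild-type females and 4.05, 1.91 and 1.68 CPM in knock-in females. The lowest tumour library, at 8.28 CPM, was just above the highest normal one, at 7.94 CPM. The log2 difference was 2.11 (SE 0.46) for wild-type males, 0.99 (SE 0.45) for knock-in males and 3.35 (SE 0.51) for wild-type females.

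Trem1, the receptor that amplifies myeloid inflammation, ranged from 1.36 to 12.9 CPM in tumours and from 0 to 2.32 CPM in normal colon. Its log2 differences were 2.28 (SE 0.82), 2.10 (SE 0.84) and 4.23 (SE 0.94) in wild-type males, knock-in males and wild-type females.

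Lcn2, the siderophore-binding protein, came second to Cxcl5 per kilobase of exon in wild-type male tumours (33.8 ± 12.9 CPM, SD, n = 3) and came behind Cxcl5 and S100a9 (72.5 ± 58.3 CPM) in wild-type female tumours, at 68.7 ± 29.7 CPM. It measured 120.3, 92.8 and 53.1 CPM in wild-type male tumours, 18.8, 23 and 60 CPM in knock-in male tumours and 242.3, 92.8 and 205.7 CPM in wild-type female tumours. Normal colon gave 4.96, 32.7 and 0.60 CPM in wild-type males, 8.32, 5.13 and 11.4 CPM in knock-in males, 1.23, 5.57 and 1.70 CPM in wild-type females and 5, 1.80 and 0.92 CPM in knock-in females. Within each genotype and sex no tumour library reached down into its own normal group. Lcn2 had the largest log2 difference of the 10 genes in wild-type females, 6.16 (SE 1.12), against 2.79 (SE 0.91) in wild-type males and 2.04 (SE 0.91) in knock-in males.

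**Figure D2:**
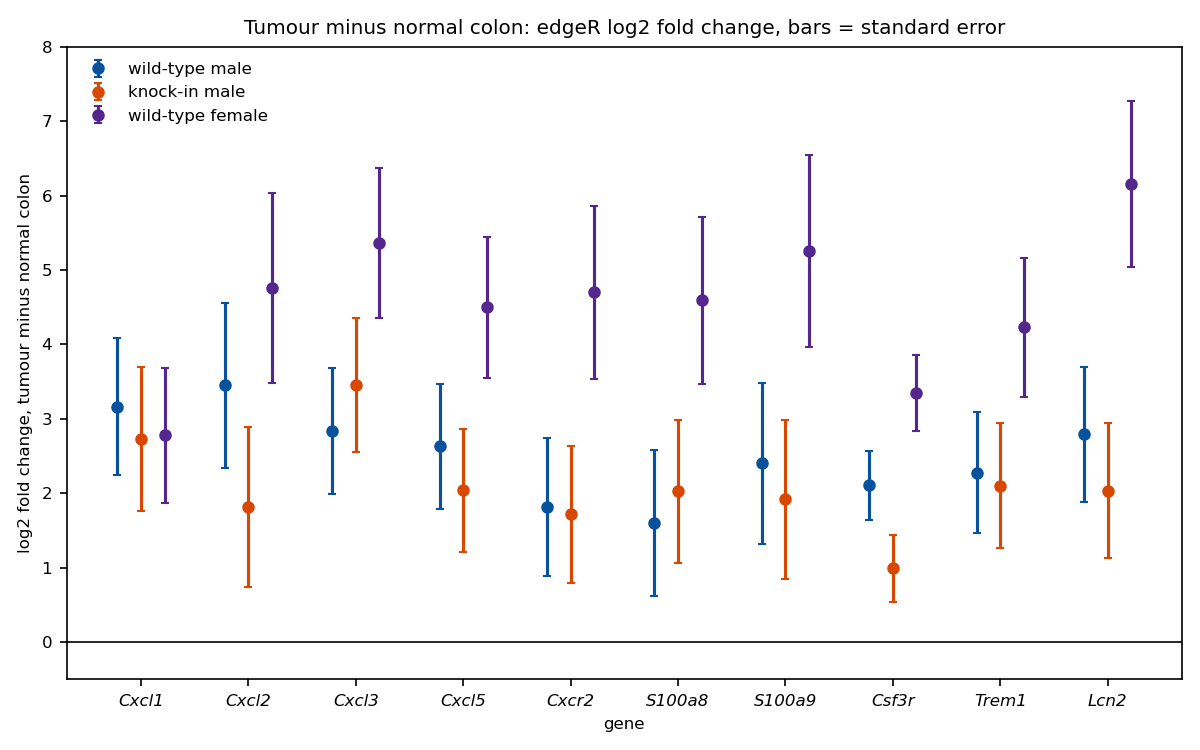
Log2 fold change of tumour over normal colon for each of the 10 genes in wild-type males, knock-in males and wild-type females; points are the edgeR estimates and bars their standard errors. All 30 points are above 0, from 0.99 (Csf3r, knock-in males) to 6.16 (Lcn2, wild-type females).

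All 10 genes were higher in tumours than in normal colon of the same genotype and sex, as the choice of the list would give. At an adjusted p-value under 0.05 in edgeR's quasi-likelihood test over 15936 genes, 7 of the 10 were called in wild-type males (all but Cxcr2, S100a8 and S100a9), 1 in knock-in males (Cxcl3) and 10 in wild-type females. Over all genes tested, 16.5% were called higher and 19.3% lower in wild-type male tumours, 10.4% and 9.97% in knock-in male tumours, and 25.0% and 24.0% in wild-type female tumours. Because the same contrasts chose the genes, nothing is read from these counts. The count in wild-type males rested on single libraries. It was 2 without normal 1, without normal 3 or without tumour 2, 4 without tumour 1, and 9 without normal 2. The calls over all genes moved too, from 5697 to between 3659 (without normal 3) and 5373 (without normal 2). In knock-in males the call of Cxcl3 was lost without normal 2 or without tumour 2.

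Tumour and normal libraries also differed in the tissue they held. The summed level of 10 smooth muscle markers ran from 2222 to 10827 CPM in the 12 normal libraries and from 270 to 1277 CPM in the 9 tumour libraries, and all 10 markers (Myh11, Des, Tagln and Acta2 among them) fell in each of the 3 tumour comparisons, with median log2 differences of -3.91 in wild-type males, -2.51 in their knock-in counterparts and -4.04 in wild-type females. By the same sum, knock-in male tumours (1030 to 1277 CPM) stood above wild-type male tumours (334 to 976 CPM) and wild-type female tumours (270 to 328 CPM). Between the male tumour groups 0 of the 10 markers were called, where 14.5% of all genes tested were. Libraries did not overlap there for 36.4% of all genes tested. The 10 epithelial markers were present throughout, summing to 6279 to 11791 CPM. The part of tissue composition in the differences was not tested, and in bulk RNA fewer cells of a type and less RNA per cell cannot be told apart.

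**Figure D3:**
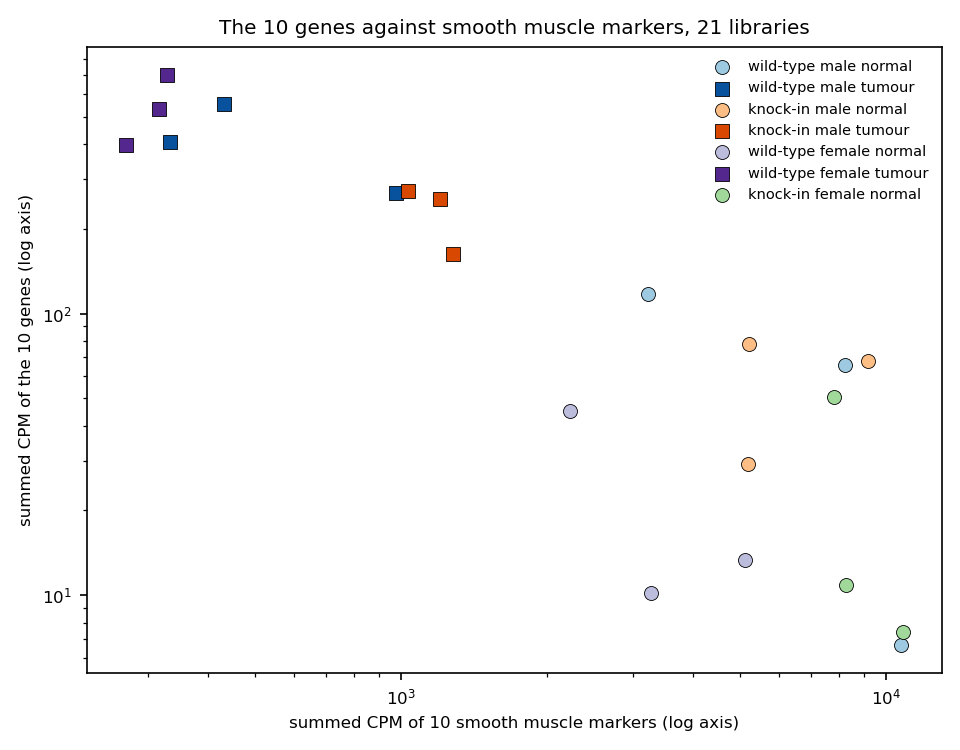
Summed CPM of the 10 genes (vertical log axis) against summed CPM of 10 smooth muscle markers (horizontal log axis) in 21 libraries; circles are normal colon and squares tumours. Tumours hold 163.1 to 699.5 CPM of the 10 genes beside 270 to 1277 CPM of muscle markers, and normal colon holds 6.67 to 117 CPM beside 2222 to 10827 CPM.

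Whether the App knock-in changed the chemokine and neutrophil genes was asked in male tumours, male normal colon and female normal colon. In male tumours 9 of the 10 genes had a lower estimate in knock-in than in wild-type tumours, and none passed the test, where 14.5% of all genes tested were called, 9.30% higher and 5.23% lower in the knock-in. The lowest estimates were those of Cxcl2, -1.68 (SE 1.02, adjusted p = 0.268), Cxcl1, -1.58 (SE 0.85, adjusted p = 0.21), and Lcn2, -1.40 (SE 0.86, adjusted p = 0.273), on the log2 scale. Wild-type male tumour 2, with 77.1 CPM of Cxcl2 and 61.4 CPM of Cxcl1, held the highest value of each gene in the series. Without it the estimates moved to -0.39 for Cxcl2 and -0.42 for Cxcl1. Csf3r was the only gene whose libraries did not overlap: 8.28 to 12.2 CPM in knock-in and 16.4 to 24.1 CPM in wild-type male tumours, a log2 difference of -0.85 (SE 0.44, adjusted p = 0.191, between 0.0496 and 0.404 over the alternatives). Over all genes tested, 36.4% had libraries that did not overlap between these groups, so the separation of 1 of 10 is no result about the list. S100a8 had a higher estimate in the knock-in, 0.62 (SE 0.93, adjusted p = 0.675). No gene had an unadjusted p under 0.05 in edgeR, and DESeq2 and limma voom also called 0 of 10.

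In male normal colon the estimates for knock-in against wild-type lay between -1.15 (Cxcl1, SE 0.99) and 0.27 (Csf3r, SE 0.46), and 0 of 10 genes were called by edgeR, DESeq2 or limma voom, with 0 at an unadjusted p under 0.05 in edgeR. Of all genes tested, 0.0126% were called there. In female normal colon 16.0% of all genes were called, and again 0 of the 10 by any of the 3 tools, with 0 at an unadjusted p under 0.05 in edgeR. The largest estimates in females were -2.13 (SE 1.79, adjusted p = 0.448) for Cxcl2 and -2.12 (SE 1.03, adjusted p = 0.172) for Cxcl1. Cxcl2 was the only gene without overlap there, at 0 to 0.48 CPM in knock-in and 0.55 to 1.81 CPM in wild-type females, all of them low counts, where 37.8% of all genes tested did not overlap. These misses do not show that the genotypes were alike, since standard errors of 0.44 to 1.79 leave wide intervals.

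**Figure D4:**
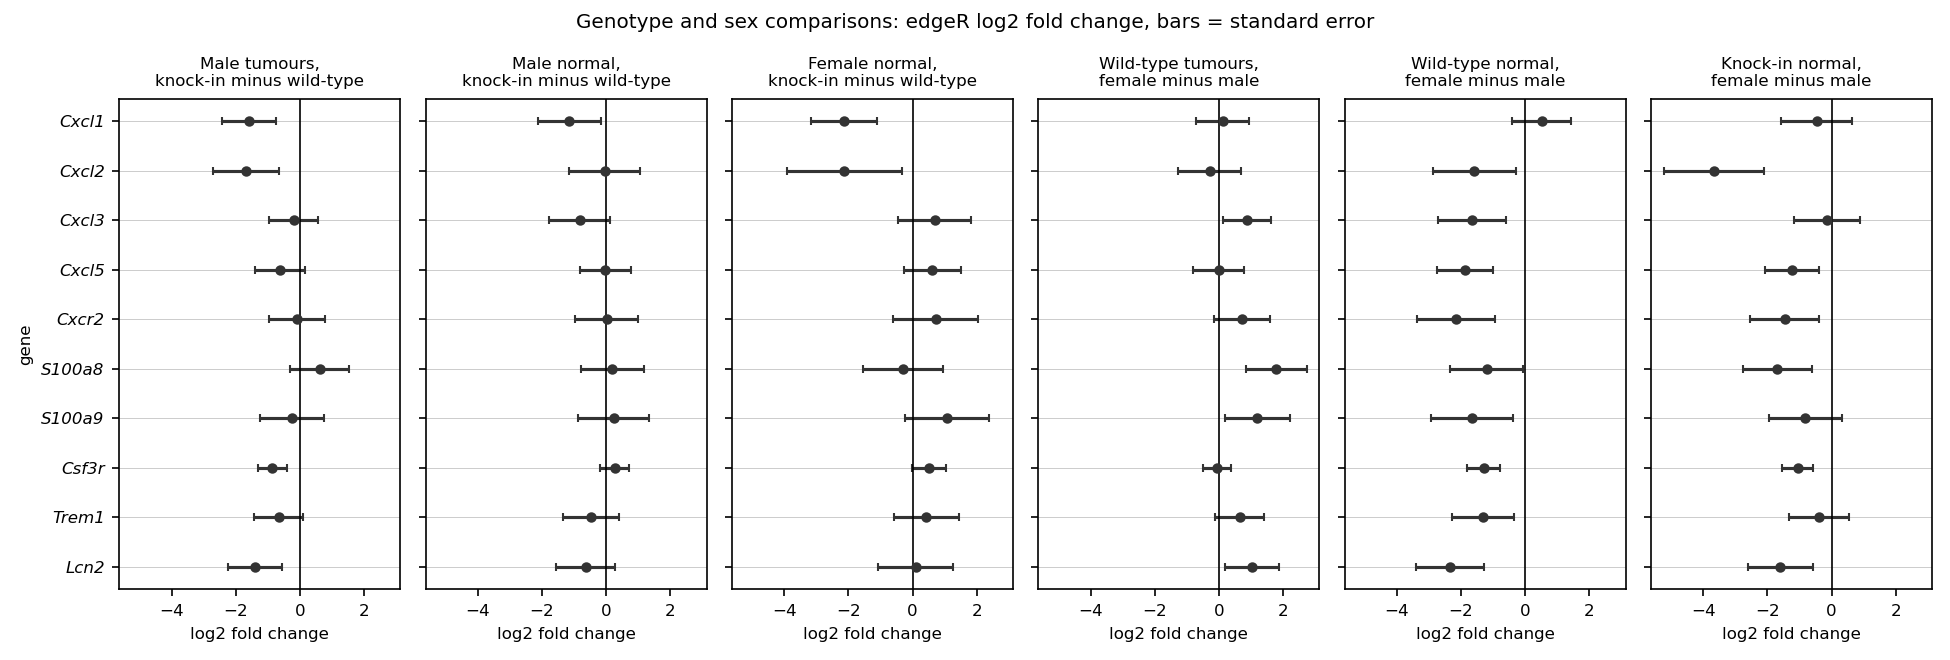
Log2 fold changes of the 10 genes in 3 genotype comparisons (knock-in minus wild-type) and 3 sex comparisons (female minus male); points are edgeR estimates and bars standard errors. None of the 60 points passed an adjusted p-value of 0.05; in male tumours 9 of 10 points lie below 0 and in wild-type normal colon 9 of 10.

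Females were compared with males in normal colon of each genotype and in wild-type tumours. In wild-type normal colon 9 of the 10 genes had lower estimates in females, all but Cxcl1, at 0.51 (SE 0.92, adjusted p = 0.749). The lowest were Lcn2, at -2.34 (SE 1.07, adjusted p = 0.146), Cxcr2, at -2.17 (SE 1.22, adjusted p = 0.236), and Cxcl5, at -1.88 (SE 0.88, adjusted p = 0.159). None passed the adjusted threshold, where 15.9% of all genes did. In the same comparison 7 of 7 endothelial, 3 of 10 smooth muscle and 3 of 8 fibroblast markers were lower in females and 0 higher, and their part in the estimates was not tested. Unadjusted p-values were under 0.05 for 2 genes, Lcn2 and Csf3r (-1.29, SE 0.51, adjusted p = 0.0898). DESeq2 called Csf3r (adjusted p = 0.0437) and limma voom called Cxcl5 (adjusted p = 0.00958). Of all 15936 genes tested, DESeq2 called 3187 there and limma voom 5375, so neither call stands out from its background. The comparison depended on wild-type male normal 3, the lowest library of its group for all 10 genes. Without it edgeR called 3 genes lower in females, Cxcl5 (-2.40), Csf3r (-1.68) and Lcn2 (-2.89). Over all genes, 2799 of 16333 were then called, 1023 of them higher in females.

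All 10 estimates were lower in females in knock-in normal colon, and 0 were called by edgeR, DESeq2 or limma voom, against 0.584% of all genes in edgeR. Unadjusted p-values were under 0.05 for Cxcl2, at -3.67 (SE 1.56, adjusted p = 0.274), and Csf3r, at -1.05 (SE 0.48, adjusted p = 0.305). Lcn2 was the only gene without overlap, at 0.92 to 5 CPM in females and 5.13 to 11.4 CPM in males, where 19.7% of all genes tested did not overlap. In wild-type tumours 7 estimates were higher in females and 3 (Cxcl2, Cxcl5 and Csf3r) were lower, none were called, none had an unadjusted p under 0.05 in edgeR, and 0.860% of all genes were called. S100a8 had the highest estimate, 1.79 (SE 0.94, adjusted p = 0.284), with 13.6 to 38.6 CPM in females above 2.67 to 12.2 CPM in males, where 31.2% of all genes tested did not overlap. By limma voom S100a8 (1.99, adjusted p = 0.0149) and Cxcl3 (1.29, adjusted p = 0.0288) were called, and by DESeq2 0. Of all 15936 genes tested, limma voom called 2944 there and edgeR 137, so 2 of 10 by limma voom is near its own background.

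A further 3 tests compared the differences themselves, and those of tumour differences are built from the comparisons that chose the genes. The tumour difference was larger in wild-type females than in wild-type males for 9 of the 10 genes by estimate, and 0 were called, with 1.12% of all genes called. For Lcn2 the difference between the sexes was 3.36 log2 units (SE 1.36), with an unadjusted p of 0.0258 and an adjusted p of 0.273 (0.0849 to 0.753 over the alternatives). Limma voom called 1 gene, Cxcl5 (3.10, adjusted p = 0.0424), and DESeq2 called 0. Of all 15936 genes tested, limma voom called 1467 and DESeq2 577. The tumour difference in knock-in males against wild-type males gave 0 calls and 0 unadjusted p-values under 0.05, with 1.51% of all genes called. The 240 genes behind that share became 0 under the replicate block and ran from 0 (without wild-type male normal 3, wild-type male tumour 1 or 2, knock-in male normal 1 or 3, or knock-in male tumour 2) to 2104 (without knock-in male normal 2). Csf3r had the smallest p there, at -1.12 (SE 0.64, adjusted p = 0.276). The genotype difference in normal colon, females against males, likewise gave 0 calls and 0 unadjusted p-values under 0.05 (2.54% of all genes called), and DESeq2 and limma voom called 0 of 10 in both of these.

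Ordered by mean CPM, the 3 tumour groups stood above the 4 normal groups for all 10 genes, and wild-type female tumours came first for 7 genes, with wild-type male tumours first for Cxcl2, Cxcl5 and Csf3r. Knock-in male tumours were the lowest tumour group for 9 genes, all but S100a8. Most neighbours in these orders overlapped. No neighbouring groups were separated for Cxcl1, S100a8, Trem1 or Lcn2, and at most 2 of 6 neighbouring pairs were for any gene. For Cxcl5, Cxcr2, S100a9 and Csf3r knock-in male tumours were separated from knock-in male normal colon, the group next in order, and for Cxcl2, Cxcl5 and Csf3r wild-type female tumours from knock-in male tumours. For Cxcl3 knock-in male tumours were separated from wild-type male normal colon, and for Cxcl2 wild-type female from knock-in female normal colon. Of all genes tested, 16.1% were separated upward in knock-in male tumours against their normal colon and 9.02% in wild-type female against knock-in male tumours. The shares were 17.1% in knock-in male tumours against wild-type male normal colon and 18.2% in wild-type against knock-in female normal colon. These shares cover every gene of a pair, whereas the genes just named are only those whose groups were neighbours in order. Neighbours or not, knock-in male tumours were separated from their normal colon for 9 of 10 genes, in a comparison that chose the list. Wild-type female tumours also lay wholly above knock-in male tumours for Cxcl1, Trem1 and Lcn2, where the groups were not neighbours.

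Within groups the 10 genes moved largely as a block, most of all in normal colon. Wild-type male normal 2 was the highest of its group for 9 genes and wild-type male normal 3 the lowest for 10. Wild-type female normal 2 and knock-in female normal 1 were each the highest of their group for all 10 genes, and knock-in male normal 3 was the highest for 9. The first 2 of these, wild-type male normal 2 and wild-type female normal 2, held the least smooth muscle marker RNA of their groups (3224 and 2222 CPM), and so did knock-in female normal 1 (7780 CPM), whereas knock-in male normal 3 (5198 CPM) did not. With group means subtracted, the correlation of log2 CPM over the 12 normal libraries was between 0.76 and 0.97 for the 45 pairs of genes, with a median of 0.87. Each pair of genes is read from the same 12 libraries, which differ in depth and in tissue makeup, and the values are given without a test.

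In the 9 tumour libraries the median over the 45 pairs was 0.64 by the same measure, and the lowest value was below 0. Wild-type male tumour 2 was the highest of its group for all 4 ligands, while wild-type male tumour 1 was highest for Cxcr2, Csf3r and Lcn2. Wild-type female tumour 1 was the highest of its group for all 6 genes other than ligands, and 2 ligands, Cxcl1 and Cxcl3, peaked in the other 2 libraries. Over the 9 tumour libraries with group means subtracted, pairs of ligands had a median correlation of 0.82. Pairs of a ligand with another gene had a median of 0.45, down to -0.39 for Cxcl1 with Cxcr2. That lowest value includes the 8 counts of Cxcr2 in wild-type male tumour 2. S100a8 with S100a9 gave 0.89. The summed ligand level in wild-type tumours was close between the sexes, 267 ± 114 CPM in males and 267 ± 22.1 CPM in females, while the sum of the other 6 genes was 141 ± 48.7 and 276 ± 131 CPM (SD, n = 3). Knock-in male tumours held 154 ± 39.3 CPM of ligands and 76.3 ± 32.6 CPM of the other 6 genes. Without Lcn2 the sum of the remaining 5 was 52.7 ± 16.2 CPM for wild-type males, 42.4 ± 10.5 CPM for knock-in males and 95.6 ± 60.7 CPM for wild-type females.

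**Figure D5:**
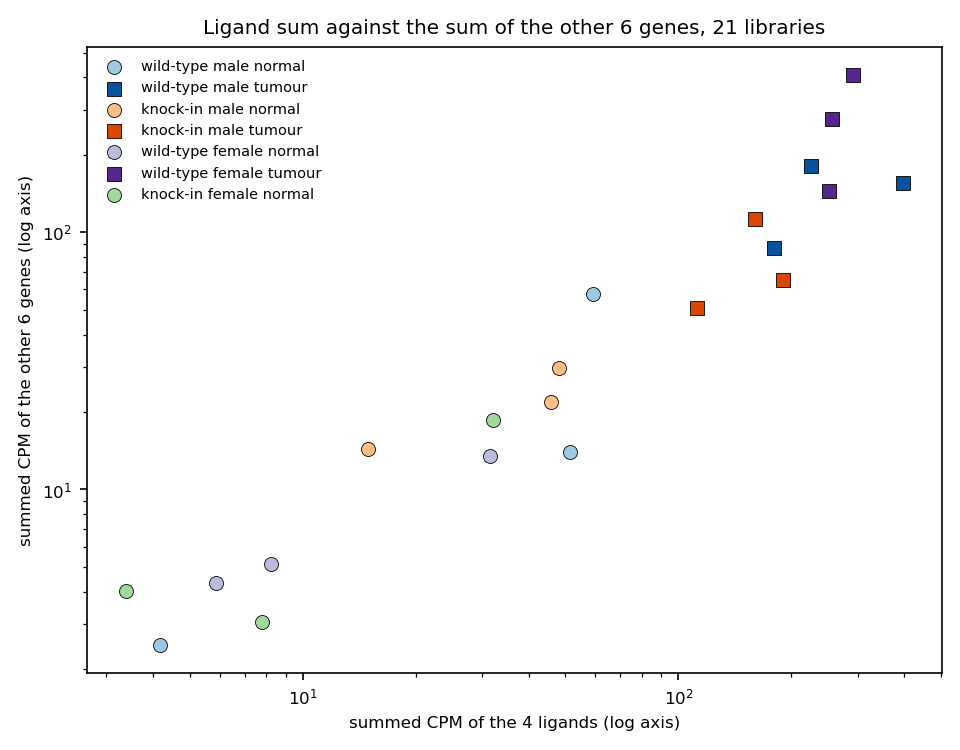
Summed CPM of the 4 ligands (horizontal log axis) against summed CPM of Cxcr2, S100a8, S100a9, Csf3r, Trem1 and Lcn2 (vertical log axis) in 21 libraries; circles are normal colon and squares tumours. Tumours occupy 112.4 to 396.7 CPM of ligands and 50.7 to 407.3 CPM of the other 6 genes, above all normal libraries on the horizontal axis.

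Other neutrophil genes were taken from a list of 28 granule and surface genes, of which 27 were found and 19 tested. The 19 are those left by the filter on low counts, which a gene can pass through its tumour libraries alone. Mpo, Elane, Prtn3, Ctsg, Camp, Stfa2l1 and Mrgpra2b did not pass, so the counts and medians of this list leave them out. This list and those below were drawn up with earlier results of these data known, so their tumour p-values are a description. In wild-type female tumours 14 of the 19 rose and none fell, with a median log2 difference of 2.89 beside 0.01 over all genes tested. In wild-type male tumours 7 rose and none fell (median 0.80), and in knock-in male tumours 1 rose and none fell (median 0.85). Over all genes tested, 25.0%, 16.5% and 10.4% were called higher in these comparisons, so 1 of 19 in knock-in males is no more than the background. Clec4e, a lectin receptor of myeloid cells, rose in all 3 comparisons. Mmp9, gelatinase B of neutrophil granules, rose by 3.06 log2 units in wild-type males (SE 0.78, adjusted p = 0.00706) and by 4.64 in wild-type females (SE 0.91, adjusted p = 0.000611), with 1.92 (SE 0.76, adjusted p = 0.0841) in knock-in males. Cd177, a neutrophil surface protein, had lower tumour estimates (-1.41, -0.77 and -0.52, none past the threshold). The iron-binding lactoferrin gene Ltf varied from 0.398 to 1381 CPM between libraries, and its estimates had standard errors above 2.

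Genes of the primary granules, which neutrophil precursors transcribe, had few or no counts. Elane and Ctsg had 0 counts in all 21 libraries, which allows at most 0.115 to 0.879 CPM in a library by its total, Mpo had 14 counts in total with 13 libraries at 0, and Prtn3 28. Of the secondary granule genes, Camp and Ngp totalled 73 and 76 counts and Ltf 47715. Among other listed genes, Padi4, the enzyme that citrullinates histones, totalled 4622 counts in tumours and 1159 in normal colon, Retnlg 384 and 103, Mmp8 285 and 54, Stfa2l1 42 and 7, and Mrgpra2b 14 and 2. In knock-in against wild-type male tumours 0 of the 19 tested genes were called, with a median log2 difference of -0.29 beside 0.05 over all genes. In the other comparisons by genotype or sex, calls in this list were limited to Ncf1 (higher) and Cd177 (lower) in knock-in female normal colon and Padi4 (lower) in wild-type female normal colon.

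Signals that recruit or feed neutrophils formed a list of 22 genes, 18 of them left by the same filter and tested. In wild-type females 9 rose (Csf3, Csf1, Il1a, Il1b, Il6, Il23a, Sele, Selp and Icam1) and 2 fell (Cxcl12 and Nfkbiz). In wild-type males 6 rose (Csf1, Il1a, Il1b, Tnf, Il23a and Icam1) and 2 fell (Cxcl12 and Ackr1), and in knock-in males 3 rose (Il1a, Sele and Selp) and Cxcl12 fell. The median log2 differences of the list were 2.43, 0.90 and 0.75 in that order, beside 0.01 for all genes tested in each. Over all genes tested, 25.0%, 16.5% and 10.4% were called higher in that order, and 24.0%, 19.3% and 9.97% lower. Cxcl12, the CXCR4 ligand that retains neutrophils in bone marrow, went opposite to the CXCR2 ligands, by -2.08 (SE 0.25, adjusted p = 1.52e-05), -0.86 (SE 0.23, adjusted p = 0.0167) and -1.27 (SE 0.25, adjusted p = 0.000398) in wild-type males, knock-in males and wild-type females. In male tumours it was higher in the knock-in, at 33.8 ± 7.07 CPM against 13.4 ± 4.33 CPM in wild-type (SD, n = 3), a log2 difference of 1.34 (SE 0.25, adjusted p = 0.00509), and Csf1, Tnf and Il23a were lower. Of all genes tested, 9.30% were called higher and 5.23% lower there. In knock-in female normal colon Cxcl12 (66.7 CPM against 30.9 CPM in wild-type) and Csf1 were called higher, and Tnf and Nfkbiz lower (16.0% of all genes called). In wild-type normal colon Cxcl12, Csf1 and Il23a were lower in females and Nfkbiz higher (15.9%). Csf1 was also called in the 3 tests of differences between effects. Ppbp, a further CXCR2 ligand stored in platelets, reached 422 CPM in 1 knock-in male tumour library and 2.52 CPM in another, and passed no test in tumours. The NF-kappaB feedback gene Tnfaip3 differed by 0.36, -0.13 and -0.53 in the 3 tumour comparisons and passed in none.

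The counts in the lists below stand beside the shares of all genes tested that were called in tumours. For wild-type males these were 16.5% higher and 19.3% lower, for knock-in males 10.4% and 9.97%, and for wild-type females 25.0% and 24.0%. A count near its share is no result about the list. Of 17 genes of epithelial defence and inflammation, all tested, 2 rose and 2 fell in wild-type male tumours, 1 rose and 2 fell in knock-in male tumours, and 3 rose and 4 fell in wild-type female tumours. The medians were 0.40, 0.61 and -0.36. Saa3, an acute-phase protein, rose in all 3. Pigr, which carries secretory antibodies across the epithelium, fell in all 3, by 2.09, 1.35 and 2.39 log2 units. The mucin-like Dmbt1 fell by 1.19 in wild-type males and 1.34 in wild-type females. Duox2, the epithelial hydrogen peroxide source, passed in none. Macrophage and monocyte markers, 12 in all, were mixed: Cd68 rose and Mrc1 and Cd163 fell in both wild-type comparisons, and none were called in knock-in males (medians 0.32 for wild-type males, -0.35 for knock-in males and 0.56 for wild-type females, the order kept below). Of 8 mast cell markers Cpa3, Mcpt1 and Mcpt2 rose in wild-type females and none were called higher in either male comparison, while Kit fell in all 3 (medians 0.58, 0.89 and 2.04). Of 9 lymphocyte markers 0 were called in wild-type males, 4 fell in knock-in males and 4 fell in wild-type females, with medians of -1.02, -2.12 and -2.86. Fibroblast markers gave 0 rises and 2 falls of 8 for wild-type males, 1 and 0 for knock-in males and 5 and 2 for wild-type females, with medians of -0.19, 0.18 and 0.66. Endothelial markers gave 1 rise and 1 fall of 7, then 0 and 0, then 5 and 0, with medians of -0.22, 0.14 and 0.83. Of 10 epithelial markers 7 fell for wild-type males, 0 for knock-in males and 9 for wild-type females, while Krt18 rose in all 3 (medians -0.47, -0.17 and -0.79). The part of these cell types in the differences of the 10 genes was not tested.

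The genes most like S100a9 in log2 CPM over the 21 libraries, among 12003 other genes with a mean of at least 50 counts, were Saa3 (r = 0.95), the metalloproteinase gene Mmp10 (0.95), the cytokine gene Il1b (0.94), Nme1 (0.94) and the protease gene Prss22 (0.94). Those most like Cxcl2 were Il1b (0.96), the hypoxia-induced Hilpda (0.94), the polyamine oxidase gene Smox (0.94), the lactate exporter gene Slc16a3 (0.94) and Angpt2 (0.93). These correlations carry the tumour and normal colon difference, so group means were also subtracted. Prss22 (0.92), Asprv1 (0.91), Erich3 (0.91), Mmp10 (0.88) and the hair keratin gene Krt36 (0.85) were then the closest to S100a9, and the immediate early gene Ier3 (0.90), Cerk (0.90), Rhbdf2 (0.89), Mex3a (0.87) and Sh3bp2 (0.87) the closest to Cxcl2. Il1b measured 50.8 CPM in wild-type male, 20.7 CPM in knock-in male and 62.8 CPM in wild-type female tumours on average, beside 2.11 to 7.36 CPM in the normal groups. All genes are read from the same libraries, which differ in depth and in tissue makeup, and the correlations are given without a test.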

How the data were processed

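Ribosomal RNA was removed from colon total RNA and cDNA was made with random hexamers for Illumina sequencing, per the labels' protocols. The authors deposited raw counts per gene for 21 libraries, and per the submitters' processing notes used Trimmomatic, HISAT2, featureCounts, DESeq2 and mm10; versions, the annotation and the strand setting are not given in the sources used here. The authors' table of comparisons was not used. A column name occurs 2 times in the counts, and these columns were used as unnumbered replicates a and b of knock-in female normal.

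Counts were scaled by TMM, filtered with filterByExpr by group (15936 of 24062 genes left) and fitted with edgeR 4.0.16 (glmQLFit, robust) in R 4.3.3, with all 21 libraries in 1 model and 1 coefficient a group; 9 comparisons of 2 groups and 3 differences of differences were taken, with Benjamini-Hochberg adjustment over all genes tested and a threshold of 0.05. DESeq2 1.42.0 and limma 3.58.1 (voom) were alternatives. SEs were derived from the quasi-likelihood F statistic. Correlations used log2 CPM with a prior count of 2, in Python 3.11.15. The edgeR fit was tested on simulated data: of 200 changed genes in the wild-type male tumour comparison of 15936, it recovered 52.2% of those changed by 1 log2 unit and 85.5% of those changed by 2, none with the wrong sign.

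The 10 genes and the gene lists were chosen with earlier results of these data known. Named genes are all 10 members, of each list at most the 4 tested genes with the highest mean CPM, and for likeness the 5 genes with the highest Pearson correlation; other list genes are named where the test called them or, for the granule genes, where their counts are given, and were picked after their values were seen. Of the list genes, Ly6g and Trac were not matched by symbol. Some genes that this rule would name are not reported here. Replicate numbers come from the labels, which do not say what a number shares. Deviations from group means correlated between same-numbered tumour and normal libraries of wild-type males at 0.169, 0.174 and 0.215. In the other comparisons not every pair exceeded 0.1. The main fit held no term for replicate number, so its values are unpaired in every comparison. Replicate number entered only in an alternative, the replicate block, as an effect shared by all numbered groups.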

Additional observations from a re-analysis of the deposited data

How the results depend on the processing

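Tumour minus normal values of the 10 genes stayed above 0 in all 147 values of each of the 3 comparisons, from 1.06 to 4.82 log2 units in wild-type males, 0.77 to 4.44 in knock-in males and 2.35 to 7.02 in wild-type females. The number called in wild-type females stayed at 9 or 10 (7 of the 7 genes tested with a mean of at least 50 counts), Cxcl1 being lost without normal 1, without normal 3 or with a covariate for late library numbers. In males it did not hold. In wild-type males (7 of 10) it was 3 in a fit of the compared groups alone and 2 to 9 when single libraries were left out. In knock-in males (1 of 10) it was 0 with a mean of at least 50 counts (Cxcl3 is then not tested), 3 by DESeq2, 2 by limma voom, 3 in a fit of the compared groups alone (Cxcl5, Cxcr2 and S100a8, with Cxcl3 lost), 2 under the replicate block and 0 to 1 when single libraries were left out. In wild-type males the replicate block, which adds an effect of each replicate number shared by all numbered groups, left the count at 7. The block fit used the 18 numbered libraries, and gave no value for comparisons with knock-in female normal colon, whose columns carry repeated numbers. It moved no other count of the 10 genes by over 1.5 times. Outside the wild-type male comparison at most 2 of 6 libraries correlated best with their own number.

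For the male tumour genotype comparison (0 called) only the compared groups gave 1, Csf3r, at -0.89 (adjusted p = 0.0496). Estimates near 0 changed sign there: Cxcl3 to 0.0166 by limma voom and to between -1.09 and 0.23 when single libraries were left out, Cxcr2 to 0.0271 with a covariate for the 3 libraries whose label number is 152 or higher and to between -0.33 and 0.55 when single libraries were left out, and S100a9 to 0.0203 by limma voom and 0.066 with that covariate. Sex comparisons gave 2 calls by limma voom in wild-type tumours and 1 by limma voom for the sex difference of the tumour effect. In wild-type normal colon they gave 1 by DESeq2, 1 by limma voom and 0 to 3 when single libraries were left out. Over all genes limma voom also called more than edgeR, at 2944 against 137, 1467 against 179 and 5375 against 2534 in that order. The cause was not tested. Over all genes, the tumour comparison of wild-type males had 5697 calls in the main fit and 5326 in the fit of only the compared groups. With single libraries left out it had 3659 to 5373. That of knock-in males had 3246 in the main fit, 3829 by DESeq2 and 2400 by limma voom. It had 724 in the fit of only the compared groups, 2900 under the replicate block and 1392 to 2994 with single libraries left out. In normal colon 42 of 120 values rested on fewer than 10 counts, which limits their precision.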
